A study of Mus musculus with 3 samples.

Results

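S100 proteins are small calcium-binding proteins with EF-hand loops, most of which act as dimers. Those encoded by S100a8 and S100a9 form calprotectin, which neutrophils store in their cytosol, which binds zinc and manganese away from microbes, and whose level in stool is used as a measure of inflammation of the gut. S100a4, S100a6, S100a10 and S100a11 are expressed in many cell types, where their proteins bind annexins, myosin and other partners at the membrane and cytoskeleton. The 8 genes S100a8, S100a9, S100a11, S100a6, S100a10, S100a4, S100a1 and S100a13 were taken by symbol from the 24346 gene symbols of each table, which held 17 S100 family symbols in all.

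Their levels were compared among Gr-1+ CD11b+ cells (Gr-1+ cells below), which the labels call neutrophils and monocytes, CD64- dendritic cells (DC) and CD64+ macrophages. All were colon cells of BALB/c mice, an inbred strain, described as healthy, and no genotype other than the strain was given. Each population was 1 library, so there was no spread between replicates and no test, and no p-value is given. Whether RNA of several mice was pooled was not given in the sources used here. Levels are FPKM, which divide the fragments of a gene by the length of its transcript and by the depth of its library, so genes can be compared within a library. In sorted populations measured in bulk, fewer cells of a type and less RNA per cell cannot be told apart.

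The libraries differed in ways that bear on low values. Steps in the FPKM of single-transcript genes put the depth of the DC and macrophage libraries at 3.58 and 2.70 times that of the Gr-1+ library. Over 1452 olfactory and vomeronasal receptor genes, which these cells should not use, the 95th percentile was 9.69 FPKM in Gr-1+ cells, 0.611 in DC and 3.24 in macrophages. This value is called the silent-gene level below. Summed over 12 neutrophil markers, the level was 33775 FPKM in Gr-1+ cells, 1171 in DC and 2910 in macrophages. Camp, which encodes a granule peptide, was at 11.3 FPKM in Gr-1+ cells and was the 1 marker at 0 in DC and in macrophages. Of the 12 markers, 12 exceeded the silent-gene level in Gr-1+ cells, 11 in DC and 10 in macrophages. Over 10 macrophage markers the sums were 2490, 3280 and 28051 FPKM in that order, over 10 dendritic cell markers 78.1, 1339 and 328, and over 7 monocyte markers 1720, 1677 and 3595. B and plasma cell markers (7 genes) summed to 431 FPKM in Gr-1+ cells, 22671 in DC and 1164 in macrophages, epithelial markers (9 genes) to 1437, 688 and 418, and T and NK cell markers (5 genes) to 25.9, 57.7 and 23.6. Of 7 sort marker genes, 6 were found by symbol, and Ly6g was not. The CD64 gene Fcgr1 was at 12.3, 9.23 and 113 FPKM, and the CD11b gene Itgam at 172, 18.7 and 114. Ly6c2 was instead lowest in Gr-1+ cells, at 320, 878 and 782 FPKM, and Ly6c1 was at 79.9, 68.8 and 44.0. Itgax was at 16.4, 19.7 and 47.0 FPKM, and Ptprc at 204, 147 and 206.

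All 8 genes lie on chromosome 3 of the mouse (GRCm38, the build also called mm10), in 2 groups. S100a1, S100a13, S100a4, S100a6, S100a8 and S100a9 fall within 185 kb, from 90511034 to 90695721, and S100a11 and S100a10 within 44.2 kb, from 93520488 to 93564643. S100a8 (90668978 to 90670035, plus strand) and S100a9 (90692632 to 90695721, minus strand) point towards each other, with 22.6 kb between them. All are annotated as protein-coding genes, and their longest annotated transcripts run from 498 nt for S100a8 and S100a4 to 783 nt for S100a6.

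RefSeq promoters were found for 7 of the 8 genes, from 250 bases before to 50 bases after the annotated start. The promoters of S100a8 and S100a9 are shown because these genes shared a pattern across the libraries, and that of S100a4 because its pattern ran the other way. They lie at chr3:90668821-90669120 (plus strand), chr3:90695672-90695971 (minus strand) and chr3:90603520-90603819 (plus strand) in GRCm38.p6. Capitals mark matches, on either strand, to the C/EBP motif TTNNGNAA, the PU.1 motif GAGGAA, the AP-1 motif TGANTCA or the TATA box TATAAA.
S100a8: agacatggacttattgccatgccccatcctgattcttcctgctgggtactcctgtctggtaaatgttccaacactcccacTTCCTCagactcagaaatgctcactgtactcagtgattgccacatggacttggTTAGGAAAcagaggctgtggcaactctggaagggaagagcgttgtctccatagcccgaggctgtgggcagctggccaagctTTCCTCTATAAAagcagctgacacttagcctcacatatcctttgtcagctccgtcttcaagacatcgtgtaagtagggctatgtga
S100a9: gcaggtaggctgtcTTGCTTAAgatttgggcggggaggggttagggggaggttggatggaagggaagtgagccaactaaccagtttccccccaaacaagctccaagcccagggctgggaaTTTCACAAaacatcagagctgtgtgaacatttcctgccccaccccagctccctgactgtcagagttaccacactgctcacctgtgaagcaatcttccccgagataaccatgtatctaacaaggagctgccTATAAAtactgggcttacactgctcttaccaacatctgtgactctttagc
S100a4: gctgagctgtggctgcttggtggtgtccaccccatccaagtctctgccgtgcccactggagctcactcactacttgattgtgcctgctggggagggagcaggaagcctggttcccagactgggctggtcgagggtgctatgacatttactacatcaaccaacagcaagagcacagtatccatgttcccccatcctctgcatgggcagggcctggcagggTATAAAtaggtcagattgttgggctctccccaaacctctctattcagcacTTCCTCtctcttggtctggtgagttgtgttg
Counting the first base of the annotated start as 0, S100a8 held a C/EBP match at -117, PU.1 matches on the other strand at -170 and -36, and a TATA box at -30 whose first base follows the last of the PU.1 match at -36. S100a9 held C/EBP matches on the other strand at -236 and -130 and a TATA box that begins at the annotated start itself. S100a4 held a TATA box at -31 and a PU.1 match on the other strand at 19, and no C/EBP or AP-1 match. Of 32851 promoters in the table, 40.7% held the C/EBP motif, 28.3% the PU.1 motif, 13.6% the TATA box and 7.81% the AP-1 motif, so single matches are common. The S100a11 promoter held a PU.1 match and 2 AP-1 matches, and the 3 promoters of S100a6, S100a1 and S100a13 held none of these letters.

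S100a8 and S100a9 were the most abundant transcripts of Gr-1+ cells. S100a8, the smaller calprotectin subunit gene, was at 98580 FPKM in Gr-1+ cells, 828 in DC and 2154 in macrophages. S100a9, the gene of the other subunit, was at 54906, 521 and 1298 FPKM in that order. They ranked 1 and 2 of all genes in Gr-1+ cells, 119 and 197 in DC, and 38 and 77 in macrophages. Together they held 17.8% of the FPKM sum in Gr-1+ cells, 0.202% in DC and 0.395% in macrophages.

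Differences were taken on the log2(FPKM + 1) scale, and a gene is called higher or lower where the difference was at least 2 in size and the larger value at least 10 FPKM. The genes compared were the 17329 that reached 1 FPKM in a library, of which 3.65% were higher and 6.28% lower by this rule in Gr-1+ cells than in DC, 9.93% in all. Of the 8 S100 genes, 4 were higher (S100a8, S100a9, S100a11 and S100a6) and 1 was lower (S100a4), and the median difference was 1.26, against 0.01 over all genes. Against macrophages, where 1.41% of genes were higher and 3.41% lower in Gr-1+ cells (4.82% in all), 3 were higher (S100a8, S100a9 and S100a11) and 1 was lower (S100a4), with a median of -0.00391 against 0.10 over all genes. The members were named with earlier results of these libraries known, so these counts describe the genes chosen. Scaling moved the split over all genes: against DC, 3.03% were higher and 10.7% lower with equal FPKM sums, and 13.1% higher and 1.16% lower with equal 75th percentiles. Against macrophages, 9.59% were higher and 0.739% lower with equal 75th percentiles. In DC against macrophages, 2.54% were higher and 1.57% lower with equal sums, and 1.13% higher and 2.91% lower with equal 75th percentiles.

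**Figure D1:**
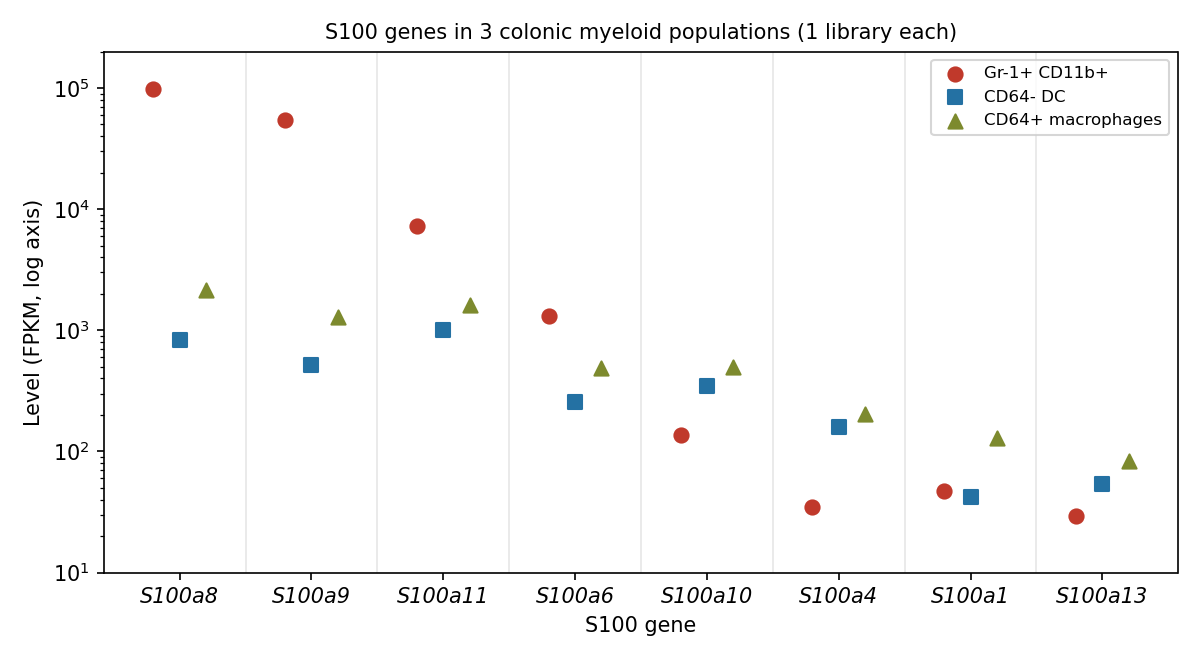
Level of each S100 gene in FPKM on a log axis, with 1 point per library for Gr-1+ cells, CD64- DC and CD64+ macrophages. S100a8 and S100a9 reached 98580 and 54906 FPKM in Gr-1+ cells, whereas S100a10, S100a4 and S100a13 were lowest there as deposited.

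The difference of S100a8 was 6.89 between Gr-1+ cells and DC, a 119-fold ratio, and 5.52 between Gr-1+ cells and macrophages, a 45.8-fold ratio. For S100a9 these differences were 6.72 and 5.40. Only 8 of 17329 genes had a larger difference than S100a8 towards Gr-1+ cells over DC, and 14 over macrophages. Both genes passed the rule under each of 5 other scalings of the libraries, with differences from 5.42 to 8.30.

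The level of S100a8 was 1.80 times that of S100a9 in Gr-1+ cells, 1.59 times in DC and 1.66 times in macrophages, a ratio within a library that no scaling changes. The levels in the CD64- and CD64+ libraries were also set against those of other neutrophil genes. The DC level was 0.840% of the Gr-1+ CD11b+ level for S100a8 and 0.949% for S100a9. Over 18 genes of a neutrophil list at 10 FPKM or more in Gr-1+ cells, this share ran from 0 to 15.3% with a median of 1.29%. These 18 were kept for their level in Gr-1+ cells, the denominator of the share, which favours low shares, so the list does not rank S100a8 and S100a9. Prtn3 was left out by this limit, at 4.69 FPKM in Gr-1+ cells, 0.146 in DC and 37.4 in macrophages. The macrophage level was 2.19% of the Gr-1+ CD11b+ level for S100a8 and 2.36% for S100a9, against a median of 3.70% over the list. The values of both calprotectin genes in DC and macrophages had the order of the neutrophil marker sums, and the part of neutrophil RNA in them was not tested.

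**Figure D2:**
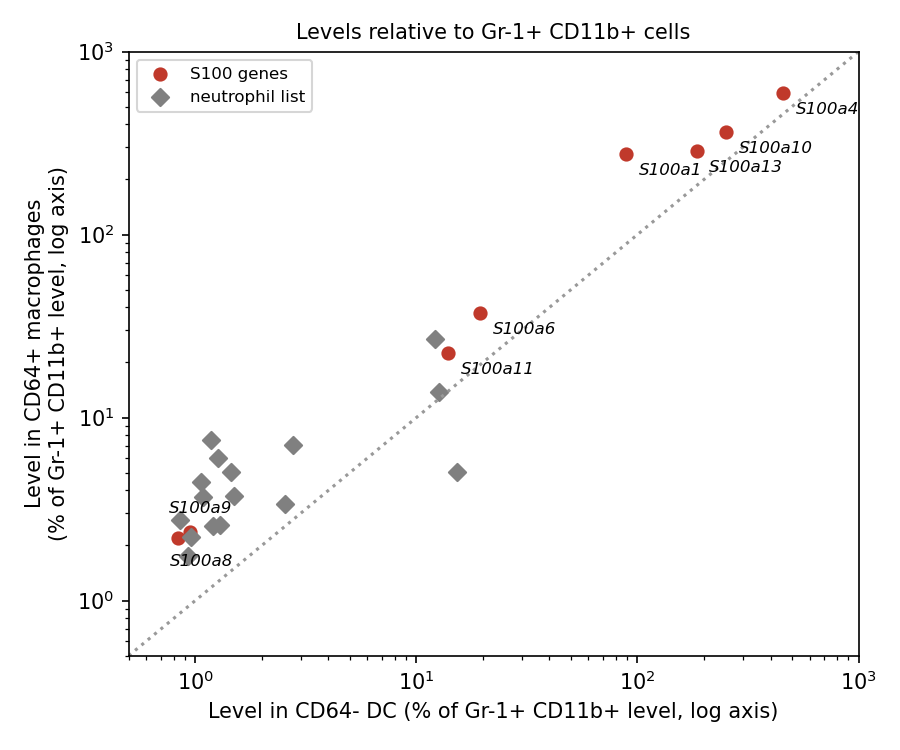
Level in CD64- DC (x axis) and in CD64+ macrophages (y axis), each as a percentage of the level in Gr-1+ cells, on log axes, with the dotted line marking equality. Circles are the 8 S100 genes and diamonds the genes of the neutrophil list at 10 FPKM or more in Gr-1+ cells and above 0 in DC and macrophages. S100a8 and S100a9 lie near 1% on the x axis and 2% on the y axis. S100a11 and S100a6 lie between 13.9% and 37.1%, and S100a10, S100a4 and S100a13 above 100%.

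Between DC and macrophages, 1.53% of all genes were higher and 2.31% lower in DC (3.85% in all), and 0 of the 8 S100 genes passed the rule in either direction. All 8 were lower in DC as deposited, with differences from -1.60 for S100a1 to -0.37 for S100a4 and a median of -0.81, against -0.05 over all genes. The share of all genes with a difference below 0 is not given here. The shift was not particular to these genes, with medians of -1.20 over the neutrophil list and -1.07 over NADPH oxidase genes. For S100 receptors, intracellular partners, transcription factors and other S100 family genes, medians were -1.16, -0.64, -0.97 and -0.03. The FPKM sum was 667779 in DC and 874986 in macrophages. S100a8 and S100a9 differed by -1.38 and -1.32. With the libraries scaled to equal FPKM sums, S100a4 turned to 0.015 and the other 7 stayed below 0. B and plasma cell markers were most abundant in the DC library and macrophage markers in the macrophage library, as given above, and their part in these differences was not tested.

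S100a11, whose protein binds annexin A1, had the highest level of the 8 genes in DC and the next after S100a8 and S100a9 in Gr-1+ cells. It was at 7210 FPKM in Gr-1+ cells, 1002 in DC and 1617 in macrophages. The differences were 2.85 from DC and 2.16 from macrophages, and both passed the rule under each of the 5 scalings. Anxa1, which encodes annexin A1, a calcium-dependent phospholipid-binding protein, was at 1382 FPKM in Gr-1+ cells, 137 in DC and 237 in macrophages. It was higher in Gr-1+ cells than in both, by 3.32 and 2.54. S100a11 was at 5.22, 7.30 and 6.82 times the level of Anxa1 within the libraries, in that order. Of the 50-base stretches of S100a11 transcripts, up to 41.1% also occur in a processed pseudogene (Gm12854), and another 2 pseudogenes hold some, so part of its fragments may have been placed elsewhere.

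S100a6, whose protein binds the ubiquitin ligase adaptor encoded by Cacybp, was at 1307 FPKM in Gr-1+ cells, 254 in DC and 485 in macrophages. Its difference of 2.36 from DC passed the rule and became 1.99 with equal FPKM sums. Its difference of 1.43 from macrophages did not pass, but was 2.01, 2.54 and 2.26 with median-ratio scaling, equal 75th percentiles and median ratios over short transcripts. Cacybp itself was at 11.8, 39.97 and 34.9 FPKM in that order, and passed in no comparison as deposited. Epithelial markers were also most abundant in the Gr-1+ library, as given above, and S100a6 and S100a11 are known to be expressed in epithelium. Their part in these values was not tested.

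S100a4, S100a10 and S100a13 were lowest in Gr-1+ cells and highest in macrophages as deposited. In Gr-1+ cells they were at only 3.57, 14.2 and 3.01 times the silent-gene level, in that order. They were at 259, 566 and 88.2 times that level in DC and 63.2, 153 and 25.7 times in macrophages. S100a4, a gene of motile cells whose protein binds the heavy chain of non-muscle myosin, was at 34.6 FPKM in Gr-1+ cells, 158 in DC and 205 in macrophages. With its longest annotated transcript assumed, its level in Gr-1+ cells rested on about 24 fragments. This gives a 95% Poisson interval of 22.3 to 51.3 FPKM that covers counting error only. The interval was 143 to 174 FPKM in DC and 185 to 226 in macrophages. These intervals hold neither the spread between samples nor the scaling between libraries, so they set no populations apart. The differences of -2.16 from DC and -2.53 from macrophages passed the rule as deposited. With median-ratio scaling, equal 75th percentiles and median ratios over short transcripts they did not, at -1.39, -0.77 and -1.26 from DC and -1.96, -1.44 and -1.72 from macrophages. A transcript of Gm42674, annotated over the same stretch, holds 47.4% of the 50-base stretches of S100a4, and Gm42674 was not analysed here. Myh9, the gene of the heavy chain of non-muscle myosin IIA, was at 20.6, 18.5 and 10.7 FPKM and passed in no comparison.

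S100a5 lies between S100a4 and S100a6, with 2477 bases to the S100a4 end and 1101 to the S100a6 end, and the balance of S100a4 and S100a6 differed between libraries. The level of S100a6 was 37.8 times that of S100a4 in Gr-1+ cells, 1.61 times in DC and 2.37 times in macrophages. This within-library ratio does not depend on scaling. It was 23.5 and 15.9 times larger in Gr-1+ cells than in DC and macrophages. These folds are imprecise, since S100a4 in Gr-1+ cells rested on about 24 fragments, with a counting interval of 22.3 to 51.3 FPKM.

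S100a10, also called p11, forms a complex with annexin A2 and can bind plasminogen at the cell surface. It was at 138 FPKM in Gr-1+ cells, 346 in DC and 496 in macrophages. Its differences of -1.32 from DC and -1.84 from macrophages did not pass the rule, and with equal 75th percentiles the difference from DC became 0.081. Its partner gene Anxa2 was instead highest in Gr-1+ cells, at 1816 FPKM in Gr-1+ cells, 472 in DC and 619 in macrophages. These Anxa2 differences, 1.94 and 1.55, did not pass as deposited, whereas both passed under 3 of the 5 scalings. Within the libraries, Anxa2 was at 13.2 times the level of S100a10 in Gr-1+ cells, 1.37 times in DC and 1.25 times in macrophages.

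S100a1, best known from heart and skeletal muscle, and S100a13, whose protein assists the unconventional export of interleukin-1 alpha and FGF1, are neighbours transcribed away from each other. The annotated ends of S100a1 (90511034 to 90514392, minus strand) and S100a13 (90514435 to 90524581, plus strand) are separated by 42 bases, and their 300-base promoter windows share 204 bases. S100a1 was at 47.2 FPKM in Gr-1+ cells, 42.1 in DC and 129 in macrophages. The Poisson intervals, for counting error within each library, were 35.6 to 61.5 FPKM in Gr-1+ cells, 36.1 to 48.8 in DC and 117 to 143 in macrophages. S100a13 was at 29.1, 53.9 and 83.2 FPKM in that order, with intervals of 20.5 to 40.2, 47.3 to 61.1 and 73.8 to 93.5. Neither passed the rule in any comparison. S100a1 was at 1.62 times the level of S100a13 in Gr-1+ cells, 0.780 times in DC and 1.56 times in macrophages. With equal 75th percentiles the difference of S100a13 between Gr-1+ cells and DC turned from -0.87 to 0.51, and with equal sums that of S100a1 turned from 0.16 to -0.20.

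Il1a, a cargo of the export route that involves S100a13, was at 425 FPKM in Gr-1+ cells, 73.4 in DC and 813 in macrophages. It was higher in Gr-1+ cells than in DC by 2.52 and lower in DC than in macrophages by the rule, at -3.45. Fgf1 was below the silent-gene level in Gr-1+ cells, DC and macrophages, at 2.35, 0.179 and 0.670 FPKM.

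**Figure D3:**
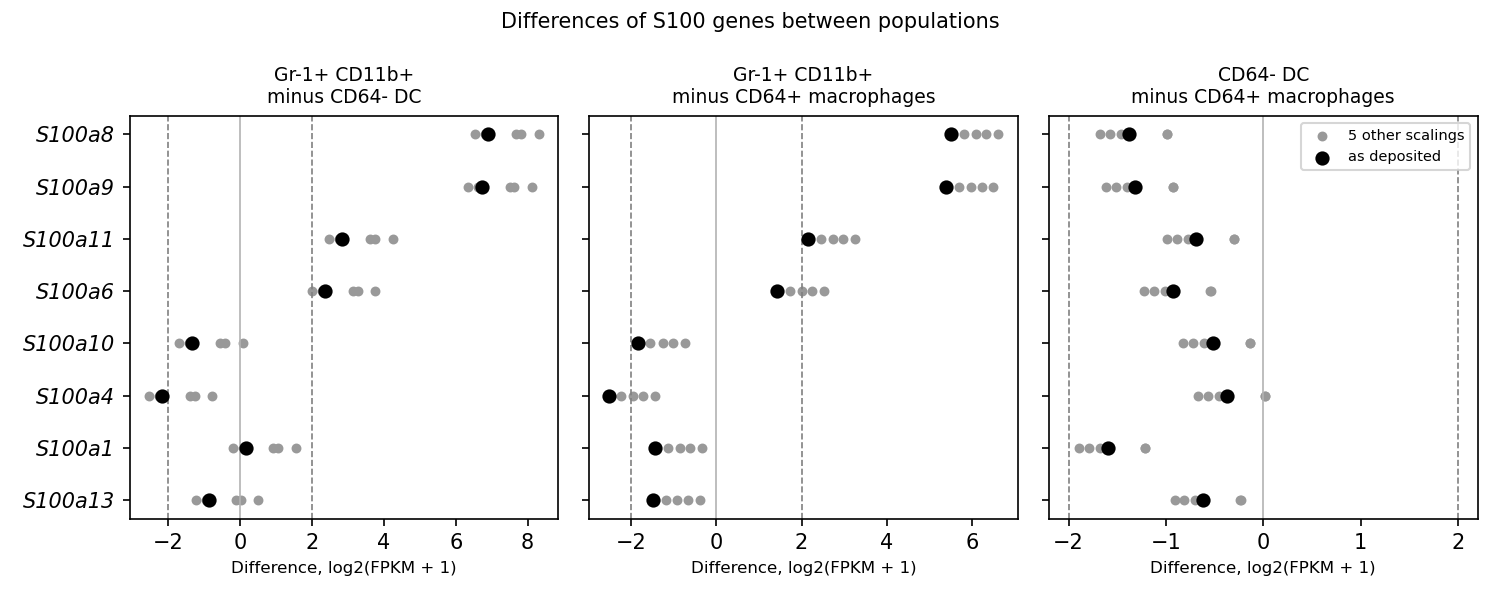
Difference in log2(FPKM + 1) of each S100 gene in the 3 comparisons, with black points as deposited, grey points under 5 other scalings, and dashed lines at a difference of 2 in either direction. S100a8, S100a9 and S100a11 stay past the line towards Gr-1+ cells, at 2.16 or more as deposited, S100a4 crosses back over it in both left panels, and no gene reaches it between DC and macrophages.

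The order of the S100 genes within a library also differed, which scaling cannot change. In Gr-1+ cells the order was S100a8, S100a9, S100a11, S100a6, S100a10, S100a1, S100a4 and S100a13. In DC it was S100a11, S100a8, S100a9, S100a10, S100a6, S100a4, S100a13 and S100a1, and in macrophages S100a8, S100a11, S100a9, S100a10, S100a6, S100a4, S100a1 and S100a13. S100a8 was at 13.7 times the level of S100a11 in Gr-1+ cells, 0.826 times in DC and 1.33 times in macrophages. Among neighbours in these orders, the counting intervals of S100a10 and S100a6 overlapped in macrophages (472 to 522 and 464 to 508 FPKM), as did those of S100a1, S100a4 and S100a13 in Gr-1+ cells and those of S100a13 and S100a1 in DC. The spread between animals was not measured.

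Of the other S100 family genes, S100a16 and S100a7a exceeded the silent-gene level in all 3 libraries. S100a16, a widely expressed family gene, was at 42.8 FPKM in Gr-1+ cells, 28.5 in DC and 11.7 in macrophages, the order of the epithelial marker sums. S100a7a, the mouse relative of the human psoriasin genes, lies next to S100a8. It was at 16.5 FPKM in Gr-1+ cells, 1.25 in DC and 5.25 in macrophages, and its difference of 2.95 from DC passed the rule. S100a14, an epithelial family gene, was at 4.11, 4.46 and 0.843 FPKM, above the silent-gene level in DC but below it in Gr-1+ cells and macrophages. S100a3 and S100b exceeded that level in no library, S100a5 did in DC at 1.01 FPKM, and S100g was above it in DC and macrophages, at 2.49 and 3.84 FPKM. S100a2 and S100z were listed at 0 in all 3 libraries. S100a7l2 was not analysed here.

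**Figure D4:**
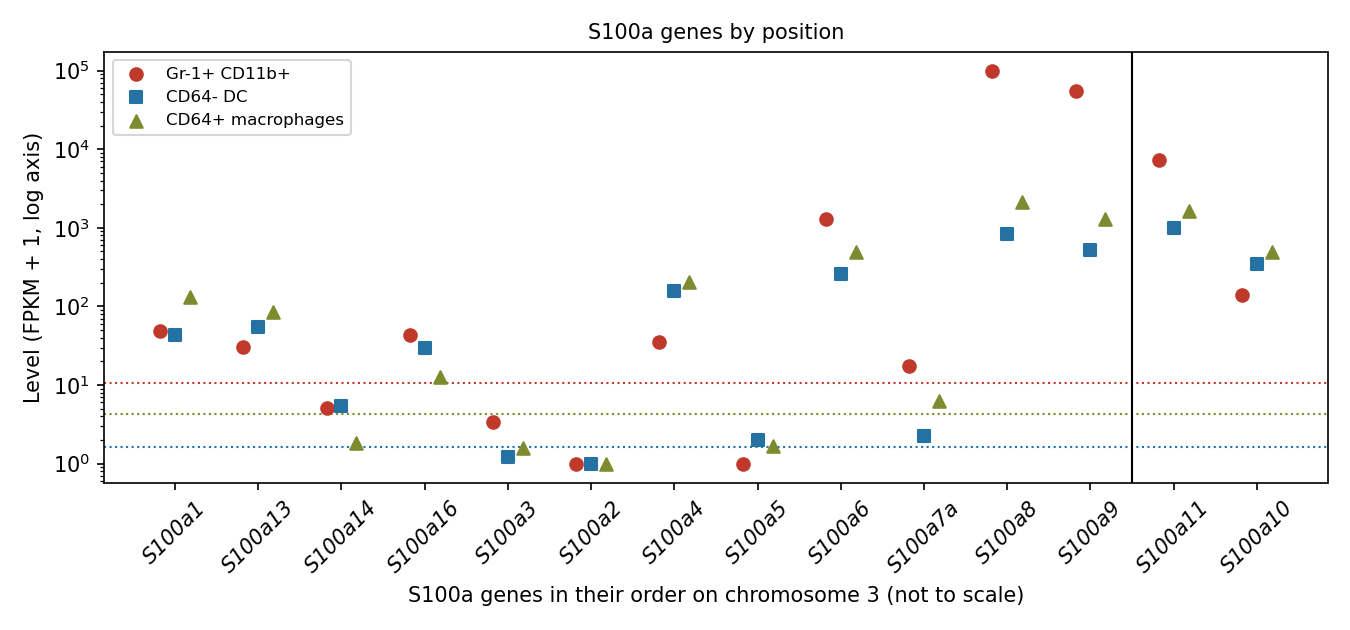
Level (FPKM + 1, log axis) of the S100a genes in their order along chromosome 3, not to scale, in each library. Dotted lines mark the silent-gene level of each library in its colour, and the vertical line separates the group from S100a1 to S100a9 from that of S100a11 and S100a10. Neighbouring genes differ widely in level, with S100a5 at 0 FPKM next to S100a6 at 1307 FPKM in Gr-1+ cells.

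Receptors through which extracellular S100 proteins are thought to act were measured in the same libraries. Of 8 such genes at 1 FPKM or more, 3 were higher in Gr-1+ cells than in DC (Cd14, Tlr4 and Mcam) and 0 were lower, with a median of 0.38, where 3.65% of all genes were higher and 6.28% lower, with a median of 0.01. Against macrophages 1 was higher (Mcam) and 1 lower (Cd36), with a median of -0.47, where 1.41% of all genes were higher and 3.41% lower, with a median of 0.10. In DC, 1 was lower than in macrophages (Cd14), with a median of -1.16, where 2.31% of all genes were lower, with a median of -0.05. Cd14, a co-receptor of TLR4, was at 10998 FPKM in Gr-1+ cells, 462 in DC and 5981 in macrophages. Tlr4, a receptor proposed for S100A8, was at 27.7, 2.03 and 10.9 FPKM, and Ly96, which encodes its partner MD-2, at 25.4, 32.6 and 73.4. Emb, the gene of embigin, was at 144, 67.1 and 200 FPKM, and Bsg, the gene of basigin, at 138, 188 and 191. Ager, the gene of the receptor RAGE, stayed under 1 FPKM in every library and was 0 in Gr-1+ cells. Mcam, the gene of a receptor proposed for S100A8 and S100A9, was at 10.3, 1.44 and 0.544 FPKM, and Cd36, a scavenger receptor gene, at 6.56, 13.6 and 32.0. In Gr-1+ cells Mcam was thus little above the silent-gene level of 9.69 FPKM and Cd36 below it. The call of Mcam against DC was lost with equal sums, at 1.99, and that of Cd36 under 4 of the 5 scalings, at -1.87 to -1.12.

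Of 12 genes of intracellular partners and the plasminogen system at 1 FPKM or more, 4 were higher in Gr-1+ cells than in DC (Anxa1, Anxa11, Il1a and Plaur) and 0 were lower, with a median of 0.86, beside 3.65% higher and 6.28% lower and a median of 0.01 over all genes. Against macrophages, 1 was higher as deposited (Anxa1) and 0 were lower, with a median of -0.29, beside 1.41%, 3.41% and 0.10 over all genes. In DC, 3 were lower than in macrophages (Il1a, Plaur and Plau), with a median of -0.64, beside 2.31% lower and -0.05 over all genes. Plaur, the urokinase receptor gene, was at 1801 FPKM in Gr-1+ cells, 361 in DC and 1601 in macrophages. Anxa6, an annexin gene, was at 39.6, 136 and 93.9 FPKM and passed in no comparison as deposited. With equal sums, 3 were higher and 2 lower in Gr-1+ cells than in DC, since Plaur no longer passed, at 1.95, and Anxa6 and Cacybp did, at -2.12 and -2.04. In DC minus macrophages, 1 of the 3 then passed, with Plaur at -1.76 and Plau at -1.88.

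Among 7087 genes at 10 FPKM or more in any library, the profiles most like those of the S100 genes were found by the Euclidean distance between log2(FPKM + 1) values centred on their mean, over 3 libraries. S100a9 was the gene nearest to S100a8, at a distance of 0.13, and S100a8 the second nearest to S100a9. Wfdc21 and Stfa2l1 completed the 3 nearest of both, and Wfdc21 was at 2999 FPKM in Gr-1+ cells, 28.6 in DC and 67.1 in macrophages. The nearest to S100a11 were Ifitm6, Agpat9 and Olfr149, an olfactory receptor gene that counts towards the silent-gene level. Those nearest to S100a6 were Tnfrsf10b, Ybey and Wdr92, to S100a10 Tma16, Lap3 and Ccdc53, and to S100a4 Snhg3, Timd4 and Pld3. For S100a1 they were Fam89b, Mlkl and Olfml3, and for S100a13 2210013O21Rik, Tmem198b and Capn2. With 3 points per gene, the distances are a description.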

How the data were processed

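For each library the authors deposited FPKM values by gene symbol. RNA was extracted with an RNeasy kit, amplified with SMART-Seq HT and made into Nextera libraries, per the labels' protocols. Per the submitters' processing notes, the tools were Cufflinks 2.2.1, TopHat2 2.0.13, SAMtools 0.1.19 and Bowtie2 2.2.3, and the build mm10. The annotation, strand setting and filters are not given in the sources used here.

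The values were used as deposited, with a pseudocount of 1 before log2. Coordinates and lengths came from GENCODE M21, which held 23310 of the 24346 symbols, and promoters from RefSeq (GRCm38.p6). Genes at 1 FPKM or more in any library entered the comparisons, and the size rule stands in for a test. Depth was estimated from single-transcript coding genes over 800 nt. FPKM times length, less 220 nt, fell within 0.2 of a whole multiple of 1 fragment for 84.6% of low values in Gr-1+ cells, 83.5% in DC and 83.7% in macrophages, where 40% would by chance. On 1 kb beyond that offset, 1 fragment was worth 0.394, 0.110 and 0.146 FPKM. Fragment numbers of S100 genes derived from this are approximate, since their transcripts are short, and without molecular identifiers a fragment is not an independent molecule. They assume the longest annotated transcript of each gene. Annotated transcripts run from 336 to 498 nt for S100a4 and from 338 to 783 nt for S100a6. Shorter transcripts would mean fewer fragments and wider Poisson intervals.

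The members, the gene lists in the text and the silent-gene level were chosen with earlier results of these data known. The genes named were all 8 members, the other S100 genes, up to 6 of each list by level, and the 3 nearest profiles of each member. Values of Tlr4, Mcam, Ager, Cacybp, Myh9, Fgf1, Irf8, Cybb, Elane, Mpo and Prtn3 were added for their roles or calls after they were seen. Some items are not reported here. The size rule and the depth estimate were tested on simulated data. The alternatives were other pseudocounts, floors, limits and 5 scalings, and subtraction of the silent-gene level. Python 3.11.15, NumPy 2.4.6, pandas 2.3.3, SciPy 1.17.1 and matplotlib 3.10.9 were used.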

Additional observations from a re-analysis of the deposited data

How the results depend on the processing

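No paired analysis was possible because each population had 1 library. Other pseudocounts, the 5 scalings and subtraction of the silent-gene level gave 192 differences of S100 genes over 3 comparisons. Of these, 174 kept their direction and their side of the size rule, 8 no longer passed, 3 newly passed and 7 changed sign. Other FPKM floors could not change a call of these genes, which all exceed the highest floor of 30 FPKM in some library, and other limits could not change a direction. The sign changes, all of differences short of the rule, were in Gr-1+ cells minus DC for S100a1 (-0.20 with equal sums and -0.14 with the silent-gene level subtracted), S100a10 (0.081 with equal 75th percentiles) and S100a13 (0.51 with equal 75th percentiles and 0.025 with median ratios over short transcripts), and in DC minus macrophages for S100a4 (0.015 with equal sums and 0.012 with S100a8 and S100a9 left out of the sums). The cause was not tested.

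Against DC, the S100 genes lower in Gr-1+ cells numbered 1 as deposited, 0 with a pseudocount of 10, a limit of 3, median-ratio scaling, equal 75th percentiles or median ratios over short transcripts, and 2 with a limit of 1. Those higher than in DC fell from 4 to 2 with a limit of 3. Those lower than in macrophages numbered 1 as deposited, 0 with a limit of 3 and the same 3 scalings, and 4 with a limit of 1, where 3 were lower in DC than in macrophages. The shares of all genes past a limit of 1 or 3, or with a pseudocount of 10, are not given here. The counts under those settings therefore describe the S100 genes only and cannot be set against a background. The order of the populations held for 6 to 8 of the 8 genes under the 5 scalings. Without 1334 symbols under 300 nt, S100a8 and S100a9 held 18.8% of the FPKM sum in Gr-1+ cells, 0.210% in DC and 0.411% in macrophages. The scalings moved the median of all genes from 0.01 to between -0.28 and 1.16 for Gr-1+ cells minus DC, from 0.10 to between 0.11 and 0.98 for Gr-1+ cells minus macrophages, and from -0.05 to between -0.24 and 0.21 for DC minus macrophages. With 1 library per population the spread between mice was not measured, and the silent-gene level limits low values in the Gr-1+ library most.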

Other observations

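Cybb and Cyba, genes of the NADPH oxidase, the enzyme that makes superoxide and that calprotectin is known to assist, did not have the pattern of S100a8 and S100a9. Cybb, the catalytic subunit gene, was at 37.4 FPKM in Gr-1+ cells, 119 in DC and 313 in macrophages. By the size rule Cybb was lower in Gr-1+ cells than in macrophages, at -3.03, and it no longer passed with equal 75th percentiles, at -1.94. Cyba, its membrane partner, was at 1200, 976 and 2053 FPKM in that order and passed in no comparison as deposited.

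Of 10 myeloid transcription factor genes, 2 were higher in Gr-1+ cells than in DC (Cebpb and Spi1) and 1 was lower (Irf8), with a median of 0.59, beside 3.65% higher and 6.28% lower and a median of 0.01 over all genes. Irf8 was also the 1 gene lower than in macrophages, with a median of -0.36, beside 3.41% and 0.10 over all genes. Cebpb was the 1 gene lower in DC than in macrophages, with a median of -0.97, beside 2.31% and -0.05 over all genes. Cebpb, which encodes a C/EBP factor, was at 3912 FPKM in Gr-1+ cells, 247 in DC and 1719 in macrophages. Spi1, the gene of PU.1, was at 847, 203 and 602 FPKM, and Irf8, a factor of monocytes and dendritic cells, at 27.6, 190 and 145. The calls of Irf8 were lost with median-ratio scaling, equal 75th percentiles and median ratios over short transcripts, and that of Spi1 with both kinds of equal sums.

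The neutrophil list held 22 genes, chosen with earlier results of these data known, and 19 reached 1 FPKM in a library. Some, such as Camp, did so only in Gr-1+ cells. Of the 19, 18 were higher in Gr-1+ cells than in DC and 17 than in macrophages, with medians of 5.88 and 4.36. Of all genes, 3.65% and 1.41% were higher, with medians of 0.01 and 0.10. The choice and this limit favour genes high in Gr-1+ cells, so the counts describe the list and are no test. Among the primary granule genes, which are transcribed early in neutrophil formation, Elane was at 0 in all 3 libraries, and Mpo was at 0.169 FPKM in Gr-1+ cells, 0 in DC and 0.250 in macrophages. Prtn3 was the 1 gene of the list lower than in macrophages.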
